A study of Mus musculus with 13 samples.

Results

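The nuclear-encoded subunits of respiratory complexes II, III, IV and V were followed in mouse right ventricle. The members were the rows named Sdha, Sdhb, Sdhc, Sdhd, Cyc1 or Cycs, and those whose names start with Uqcr, Cox4i, Cox5, Cox6, Cox7, Cox8 or Atp5, with 1 pseudogene name left out. This rule gave 49 of the 26264 genes listed, namely 4 of complex II, 10 of complex III with cytochrome c, 18 of complex IV and 17 of complex V. The files use older names for ATP synthase genes, such as Atp5g1, Atp5g2 and Atp5g3 for the genes now called Atp5mc1, Atp5mc2 and Atp5mc3. RNA was measured by poly(A) mRNA sequencing in 7 libraries of Dsg2 F536C knock-in mice, which carry an amino acid change in the desmosomal cadherin desmoglein 2, and in 6 libraries of wild-type mice. The knock-in is a mouse model of arrhythmogenic right ventricular cardiomyopathy, and the series asks what part PPAR-γ signalling plays in that disease. The labels give no age, sex, strain, zygosity or treatment for either group and do not say that each library is a separate animal, so p-values measure only the spread between these libraries.

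Oxidative phosphorylation takes place in the inner mitochondrial membrane. Complex II passes electrons from succinate to ubiquinone, complex III passes them on to cytochrome c, complex IV (cytochrome c oxidase) hands them to oxygen, and complex V (ATP synthase) uses the resulting proton gradient to make ATP. The heart beats on ATP made in this way, and cardiomyocytes are packed with mitochondria. Several complex IV subunits come in pairs of isoforms, one made mainly in heart and skeletal muscle and one made in most tissues. The subunits encoded by mitochondrial DNA were not analysed here.

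Libraries held between 14498336 and 29848597 estimated reads. Knock-in libraries 4, 5 and 6 stood apart from the other knock-in libraries. Their tables held fractional read numbers for 10.2 to 10.7% of genes, compared with 3.07 to 3.79% in the remaining 10, and summed epithelial markers (Krt8, Krt18, Krt19, Epcam and Cdh1) of 1755 to 2979 TPM, against at most 32.5 TPM elsewhere. Counts of members, their log2 fold changes and the isoform ratios are therefore given for all 13 libraries and for the 10 without them. Values of single genes outside the members are in part given with 13 libraries only. Dsg2 RNA was 47.7 ± 10.3 CPM in knock-in libraries and 101 ± 11.2 CPM in wild type (mean ± SD, n = 7 and 6), which does not read the amino acid change itself. All 10 cardiomyocyte markers were found in every library, and the skeletal muscle markers summed to at most 9.70 TPM in knock-in libraries and 13.1 TPM in wild type. Values are given as TPM (transcript numbers relative to all transcripts of the library, corrected for length), which allow genes to be compared, and as CPM (counts relative to the library's total) scaled by edgeR's TMM factors, on which fold changes rest.

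Nearly every subunit had less RNA in the knock-in ventricles. A gene was called lower or higher at a Benjamini-Hochberg adjusted p under 0.05 in edgeR's quasi-likelihood test over all genes. Of the 47 members with enough reads to test, 46 were lower and 0 higher with 13 libraries, where 21.0% of the 14588 tested genes were lower and 23.6% higher. With 10 libraries 44 of 47 were lower and 0 higher, where 21.3% of 14518 tested genes were lower and 22.3% higher. At an unadjusted p under 0.05, 0 members were higher in edgeR with either set, and DESeq2 and limma-voom called 46 lower and 0 higher with either set. With limma on log2(TPM + 0.1) and 10 libraries 1 member, Cox4i2, was higher at an unadjusted p under 0.05. The median log2 fold change of the members was -1.11 with 13 libraries and -0.92 with 10, while the median over all tested genes was 0.08 and 0.02. A fall of at least 2-fold was seen in 31 members with 13 libraries and in 13 members with 10. The share of all tested genes with such a fall was not computed.

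The groups separated for most members. In 43 of the 47, CPM in every knock-in library lay below CPM in every wild-type library, with 13 libraries and with 10, where 10.5% and 15.0% of all tested genes did so. In TPM, which are not scaled by TMM factors, the same separation held for 34 members in both sets, where 2.81% and 3.46% of all tested genes did so. Scaling by library totals, without TMM factors, moved the median of all tested genes to 0.33 with 13 libraries and 0.26 with 10, and the members' medians to -0.86 and -0.66. Over all tested genes that scaling called 6110 higher and 1661 lower with 13 libraries, against 3442 higher and 3060 lower with TMM factors. It called 44 members lower with 13 libraries and 43 with 10, and 0 higher in either set. Exons of 11 members (Uqcrb, Uqcrc2, Cox4i1, Cox5a, Cox6a2, Cox6c, Atp5a1, Atp5d, Atp5j, Atp5l and Atp5o) share at least 50 bases with a gene on the other strand in GENCODE's annotation of an older build. Whether the counting used strand is not given in the sources used here, so their reads cannot be told apart from those of their partners. Atp5o and Atp5g2 also overlap Donson and Mir688 on the same strand, and Atp5md and Atp5pb were not matched by name in that annotation.

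**Figure D1:**
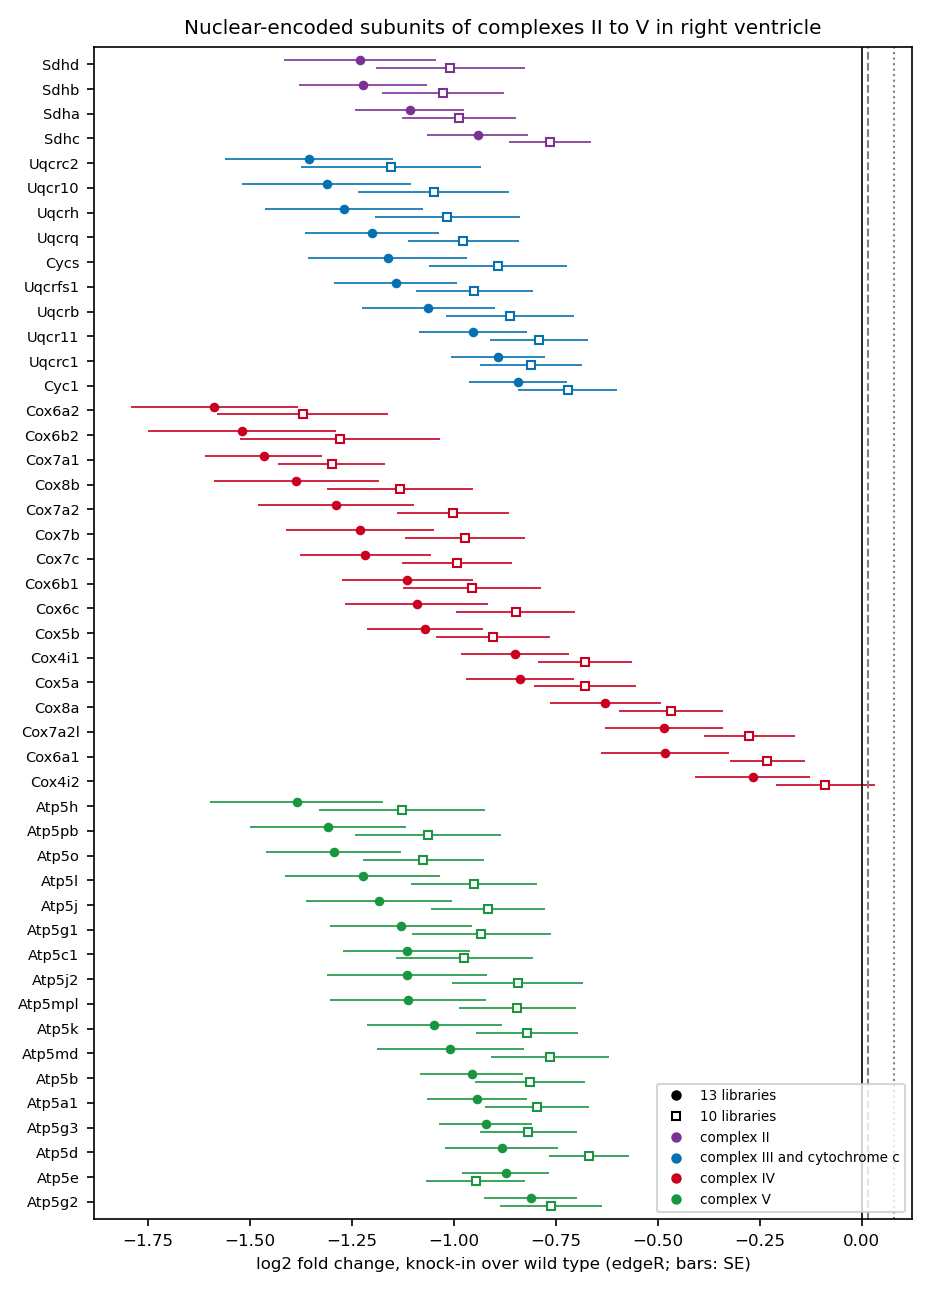
Log2 fold change (knock-in over wild type) of each of the 47 tested subunits, by complex, with 13 libraries and with the 10 that leave out knock-in 4, 5 and 6. Bars are standard errors, and the grey dotted and dashed lines mark the median of all tested genes with 13 and with 10 libraries (0.08 and 0.02). All points lie left of 0, and Cox4i2, Cox6a1 and Cox7a2l lie nearest to it.

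Knock-in 4, 5 and 6 were the lowest knock-in libraries for 36 of the 47 members, in CPM and in TPM alike. The share of all tested genes in that order was not computed, so this count does not set the members apart from other genes. Reads of all 49 members made up 2.72 to 4.55% of the reads of knock-in libraries, against 5.84 to 7.11% in wild type. Without those libraries the knock-in range was 3.90 to 4.55%. Summed over the members, RNA came to 81833 to 128715 TPM in knock-in libraries and 158593 to 184271 TPM in wild type, with no overlap.

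**Figure D2:**
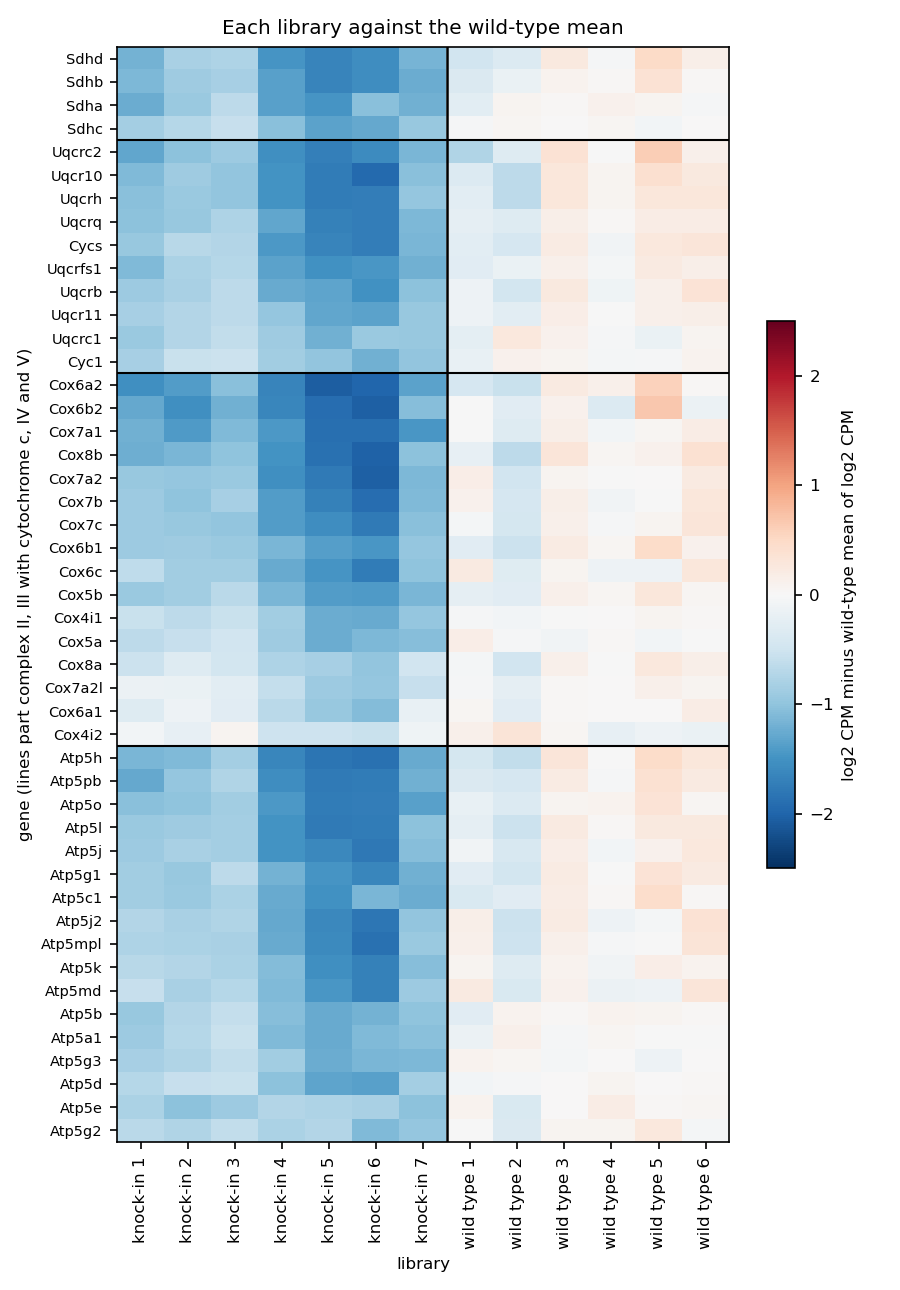
Log2 CPM of each tested subunit in each library minus its mean log2 CPM in wild type, knock-in libraries on the left and wild-type libraries on the right. Blue cells are below the wild-type mean and red cells above it. The knock-in columns are blue for nearly all subunits, most of all in knock-in 4, 5 and 6, and the row of Cox4i2 is the palest.

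Cardiomyocyte markers were lower too. Their summed level (Myh6, Tnnt2, Tnni3, Actc1, Mybpc3, Myl2, Myl3, Tnnc1, Ryr2 and Pln) was 39783 to 67992 TPM in knock-in libraries and 69739 to 93809 TPM in wild type, and 9 of the 10 were lower with 13 libraries and 8 with 10. The summed TPM of the subunits divided by that of the cardiomyocyte markers was 2.20 ± 0.179 in knock-in libraries (SD, n = 7), between 1.89 and 2.38. In wild type it was 2.22 ± 0.300 (SD, n = 6), between 1.85 and 2.54, so that the groups overlapped. This ratio depends on which markers weigh most in the sum. Myl2, the largest, had 12948 to 22146 TPM in knock-in libraries and 22924 to 37665 TPM in wild type. Mybpc3 had 382 to 617 TPM in knock-in libraries and 355 to 528 TPM in wild type, and Actc1 3872 to 5915 TPM and 4327 to 6231 TPM. Ratios to single markers were not tested. Summed fibroblast markers were 2666 to 3945 TPM in knock-in libraries and 1322 to 1942 TPM in wild type, and macrophage markers 1226 to 2949 TPM in knock-in libraries and 729 to 919 TPM in wild type. With 13 libraries 3 of 6 fibroblast and 4 of 6 macrophage markers were higher, and with 10 libraries 5 of 6 and 6 of 6. Endothelial markers summed to 287 to 523 TPM in knock-in libraries and 249 to 414 TPM in wild type, with 0 of 5 higher or lower with 13 libraries and 2 of 5 higher with 10. What part these other cells have in the lower subunit RNA was not tested. In whole ventricle, fewer cardiomyocytes and less subunit RNA per cardiomyocyte cannot be told apart.

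**Figure D3:**
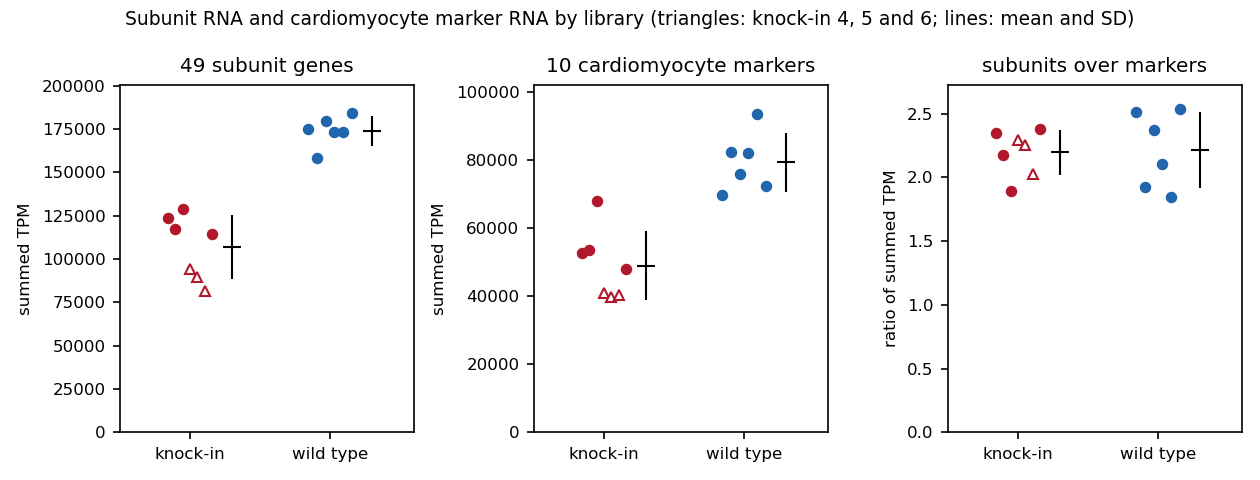
Summed TPM of the 49 subunit genes, summed TPM of the 10 cardiomyocyte markers and the ratio of both sums, one point per library, knock-in left of wild type. Triangles are knock-in 4, 5 and 6, and the lines give mean and SD over all libraries of a group. Both sums separate the groups, while the ratios overlap (1.89 to 2.38 in knock-in libraries, 1.85 to 2.54 in wild type). Myl2 is the largest part of the marker sum, and the ratio depends on this weighting.

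In complex II all 4 subunits were lower in both sets, with median log2 fold changes of -1.17 with 13 libraries and -0.998 with 10. Sdha, the flavoprotein that oxidises succinate and also serves the citric acid cycle, had between 591 and 1045 CPM (median 713) in the knock-in libraries, against 1365 to 1766 CPM (median 1699) in wild type. Every knock-in library lay below every wild-type library, and the log2 fold change was -1.11 ± 0.13 (SE; edgeR adjusted p = 4.31e-05) with 13 libraries and -0.99 ± 0.14 with 10. Sdhb, the iron-sulfur subunit, ranged between 461 and 809 CPM (median 612) in the knock-in libraries, against 1115 to 1851 CPM (median 1478) in wild type, and its groups did not overlap either. Its log2 fold change was -1.22 ± 0.16 with 13 libraries and -1.03 ± 0.15 with 10. The membrane anchors Sdhc and Sdhd form the ubiquinone site together with Sdhb. Sdhc had between 234 and 399.7 CPM (median 307) in the knock-in libraries, against 569 to 616 CPM (median 596) in wild type, a log2 fold change of -0.94 ± 0.12 with 13 libraries and -0.77 ± 0.10 with 10. Its wild-type values lay close together. Sdhd had between 301 and 555 CPM (median 415) in the knock-in libraries, against 678 to 1315 CPM (median 989) in wild type, a log2 fold change of -1.23 ± 0.19 with 13 libraries and -1.01 ± 0.18 with 10. Its wild-type libraries spread widely, with wild type 1 and 2 the lowest, and the groups still did not overlap in CPM. In TPM the groups of Sdhd overlapped, with 692 TPM in knock-in 3 and 690 TPM in wild type 1. Per transcript length, Sdhb was the most abundant of the 4, with a median of 1005 TPM in knock-in libraries and 1747 TPM in wild type, and Sdha had 397 TPM in knock-in libraries and 619.8 TPM in wild type.

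All 10 members of complex III and cytochrome c were lower in both sets, with medians of -1.15 and -0.92, and in each of them every knock-in library lay below every wild-type library in CPM. Cycs, the mobile carrier cytochrome c, had between 909 and 1844 CPM (median 1362) in the knock-in libraries, against 2249.8 to 3718 CPM (median 3128) in wild type. The lowest values were those of knock-in 4, 5 and 6, and the log2 fold change was -1.16 ± 0.20 with 13 libraries (edgeR adjusted p = 0.000408) and -0.89 ± 0.17 with 10. Cyc1, the cytochrome c1 subunit that hands electrons to cytochrome c, fell least of the 10. It had between 402 and 639.7 CPM (median 507) in the knock-in libraries, against 816 to 1001 CPM (median 939) in wild type, a log2 fold change of -0.84 ± 0.12 with 13 libraries and -0.72 ± 0.12 with 10.

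The core protein Uqcrc2 and the small subunit Uqcr10 fell most in complex III. Uqcrc2 had between 442 and 769.6 CPM (median 587) in the knock-in libraries, against 862 to 2218 CPM (median 1511) in wild type, a log2 fold change of -1.36 ± 0.20 with 13 libraries and -1.15 ± 0.22 with 10. The highest knock-in library and the lowest wild-type library, wild type 1, were not far apart. Uqcr10 had between 246 and 509 CPM (median 440.4) in the knock-in libraries, against 601 to 1242 CPM (median 1049) in wild type, a log2 fold change of -1.31 ± 0.21 with 13 libraries and -1.05 ± 0.18 with 10. Uqcrb, which lies beside the ubiquinone site and had the highest mean TPM of the complex over all 13 libraries, had between 3115 and 4796 TPM (median 4197) in the knock-in libraries, against 5037 to 6765 TPM (median 5642) in wild type. In wild type alone Uqcrh, with a median of 6428 TPM, was above Uqcrb. In TPM the groups of Uqcrb did not overlap, and the log2 fold change of Uqcrb in CPM was -1.06 ± 0.16 with 13 libraries and -0.86 ± 0.16 with 10. The other core protein Uqcrc1, the Rieske iron-sulfur protein Uqcrfs1, the hinge protein Uqcrh, and Uqcr11 and Uqcrq had log2 fold changes from -1.27 to -0.89 with 13 libraries and from -1.02 to -0.79 with 10.

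Complex IV had the widest range of fold changes of the 4 complexes. With 13 libraries 15 of its 16 tested subunits were lower, with a median of -1.10, and with 10 libraries 13 of 16, with a median of -0.93. Cox8c, whose product is known from testis, had 0 reads in every library, and Cox7b2 had 0 to 5 reads per library, so neither was tested. Cox6c, a small structural subunit, was the most abundant of the complex with between 5728 and 11285 TPM (median 9107) in the knock-in libraries, against 10888 to 16104 TPM (median 12784) in wild type. The groups overlapped in TPM but not in CPM, and the log2 fold change in CPM was -1.09 ± 0.17 with 13 libraries and -0.85 ± 0.15 with 10. The log2 fold changes of Cox5a, Cox5b, Cox7b and Cox7c, nuclear subunits that surround the mitochondrially encoded core, ranged from -1.23 to -0.84 with 13 libraries and from -0.99 to -0.68 with 10. Cox5a was not called with 10 libraries when TPM were tested with limma. Read numbers of Cox7c were not whole in any library, so that it may share reads with the pseudogene Cox7c-ps1, and its values are uncertain. Cox7a2l, which joins complexes III and IV into supercomplexes, moved little. Its level was between 239.9 and 425 CPM (median 316) in the knock-in libraries, against 404 to 513 CPM (median 475) in wild type, with overlapping groups, and its log2 fold change was -0.48 ± 0.15 (edgeR adjusted p = 0.0155) with 13 libraries and -0.28 ± 0.11 (edgeR adjusted p = 0.0584) with 10. Cox7a2l was not called with library totals, with TPM or with the replicate number as a block, and on the TPM scale its 10-library change was 0.11.

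Cox6a2, Cox7a1 and Cox8b, the isoforms of heart and skeletal muscle, and the scarce Cox6b2 had the largest falls in complex IV. Cox6a2, the muscle form of subunit VIa, had between 648 and 1296 CPM (median 923) in the knock-in libraries, against 1823 to 4029 CPM (median 2835) in wild type, the largest fall among all members. Its groups lay far apart, with a log2 fold change of -1.59 ± 0.20 (edgeR adjusted p = 6.55e-05) with 13 libraries and -1.37 ± 0.21 (edgeR adjusted p = 0.000201) with 10. Cox6a1, the form of most other tissues, had between 55.2 and 106 CPM (median 93.8) in the knock-in libraries, against 96.3 to 133 CPM (median 118) in wild type. The groups of Cox6a1 overlapped, and its log2 fold change was -0.48 ± 0.16 (edgeR adjusted p = 0.0225) with 13 libraries and -0.23 ± 0.09 (edgeR adjusted p = 0.0551) with 10. With library totals Cox6a1 changed by -0.23 with 13 libraries and by 0.02 with 10, so its direction depends on the scaling. The partner of Cox6a2 on the other strand is Itgad, an integrin gene of white blood cells.

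Cox8b, the muscle form of subunit VIII, had between 353 and 718 CPM (median 617) in the knock-in libraries, against 918 to 1878 CPM (median 1519) in wild type. The groups did not overlap, and the log2 fold change was -1.39 ± 0.20 with 13 libraries and -1.13 ± 0.18 with 10. Cox8a, its ubiquitous counterpart, had between 124 and 198 CPM (median 169) in the knock-in libraries, against 177 to 298 CPM (median 258) in wild type, where the groups overlapped through wild type 2. The log2 fold change of Cox8a was -0.63 ± 0.14 (edgeR adjusted p = 0.00241) with 13 libraries and -0.47 ± 0.13 (edgeR adjusted p = 0.00895) with 10, and limma on TPM did not call it in either set. With 10 libraries it was not called with library totals or the replicate number as a block either. Cox7a1, the muscle form of subunit VIIa, was the third of the muscle isoforms, with between 4200.0 and 6440.5 TPM (median 5146) in the knock-in libraries, against 10011 to 11232 TPM (median 10650.1) in wild type. The groups of Cox7a1 stood well apart in TPM, and its log2 fold change in CPM was -1.47 ± 0.14 with 13 libraries and -1.30 ± 0.13 with 10. Here the form of most tissues fell as well: Cox7a2 had between 943 and 1796 TPM (median 1692) in the knock-in libraries, against 2254 to 3079.9 TPM (median 2633) in wild type, and a log2 fold change of -1.29 ± 0.19 with 13 libraries and -1.002 ± 0.14 with 10.

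**Figure D4:**
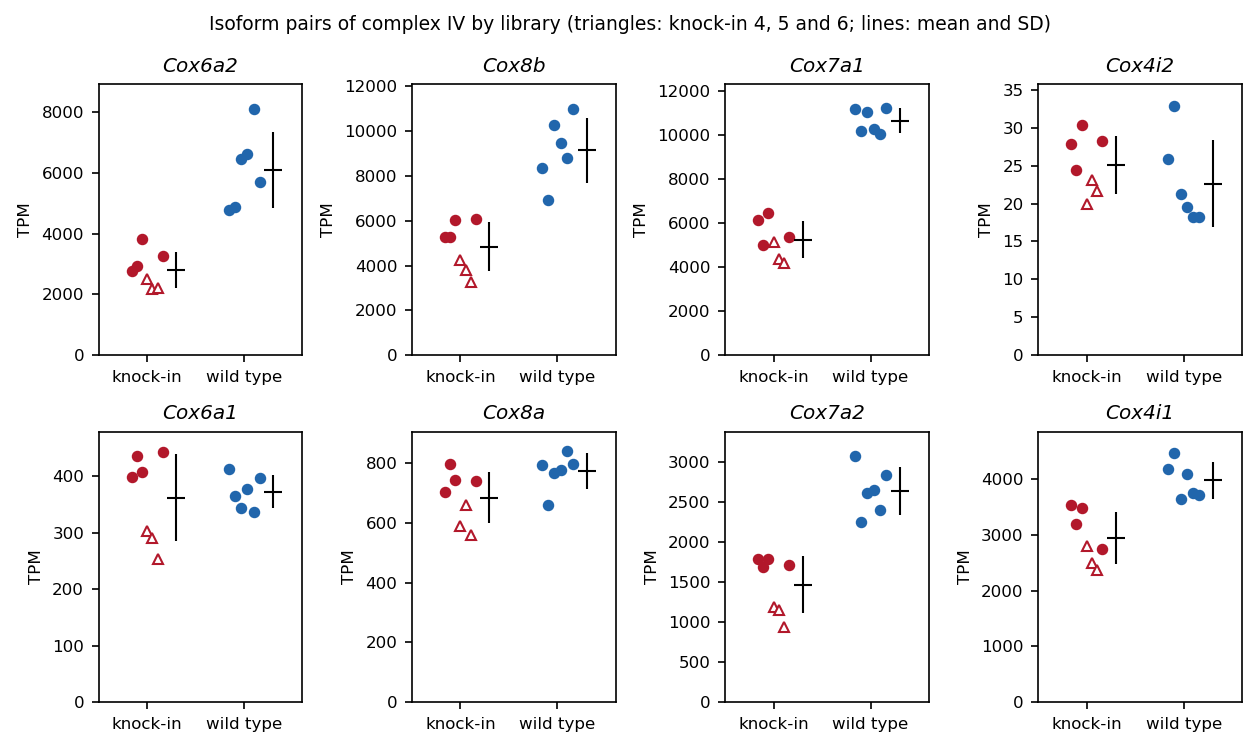
TPM of both members of the Cox6a, Cox8, Cox7a and Cox4i isoform pairs, one point per library, knock-in left of wild type, with triangles for knock-in 4, 5 and 6 and lines for the mean and SD. The groups of Cox6a2, Cox7a1 and Cox8b do not overlap, nor do those of Cox7a2 and Cox4i1, whereas those of Cox6a1, Cox8a and Cox4i2 do.

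Within a library, the ratio of 2 isoforms does not depend on how libraries are scaled, but in whole ventricle it can depend on the mix of cells. What part the cell mix has in these ratios was not tested. Each ratio was taken as log2((TPM + 0.1)/(TPM + 0.1)) and compared by exact two-sided permutation of the group labels, with p adjusted over 8 ratios. The Cox6a2 to Cox6a1 log2 ratio averaged 2.96 ± 0.177 in knock-in libraries and 4.01 ± 0.381 in wild type (SD, n = 7 and 6). The difference was -1.05 with 13 libraries (exact permutation p = 0.000583, adjusted p = 0.00233) and -1.09 with 10 (exact permutation p = 0.00476, adjusted p = 0.0127), and each raw p is the smallest its design can give. Cox6a2 thus made up 87.0 to 90.4% of the TPM of the pair in knock-in libraries and 92.1 to 96.0% in wild type, with no overlap. Cox8b moved likewise against Cox8a. Its share of the pair was 85.2 to 89.1% in knock-in libraries and 91.3 to 93.3% in wild type, and the log2 ratio differed by -0.75 with 13 libraries (exact permutation p = 0.000583, adjusted p = 0.00233) and -0.63 with 10 (exact permutation p = 0.00476, adjusted p = 0.0127). For both ratios every knock-in library lay below every wild-type library, and leaving out any 1 library did not end either call.

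The Cox7a1 to Cox7a2 ratio behaved differently among knock-in libraries. With 13 libraries the log2 ratio differed by -0.16 (exact permutation p = 0.137, adjusted p = 0.183), and Cox7a1 made up 74.7 to 81.7% of the pair in knock-in libraries and 78.4 to 81.8% in wild type. In knock-in 4, 5 and 6 the log2 ratio was 1.92 to 2.15, inside the wild-type range of 1.86 to 2.17. In the other knock-in libraries it was 1.57 to 1.84, below every wild-type library, and with those 10 libraries the difference was -0.31 (exact permutation p = 0.00476, adjusted p = 0.0127). That call therefore rests on leaving out these 3 libraries.

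**Figure D5:**
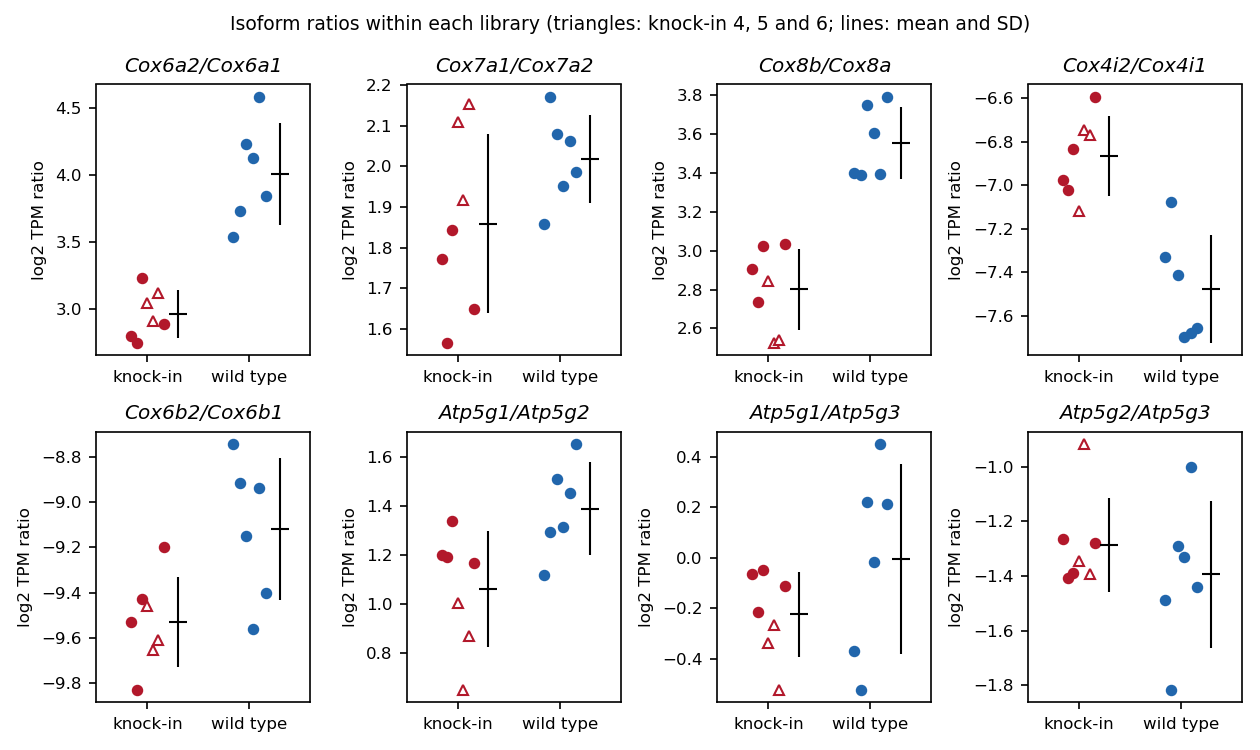
Log2 ratio of the TPM of 2 isoforms within each library, knock-in left of wild type, with triangles for knock-in 4, 5 and 6 and lines for the mean and SD over all libraries of a group. The ratios of Cox6a2 to Cox6a1 and of Cox8b to Cox8a do not overlap between groups, and the Cox4i2 to Cox4i1 ratio lies higher in knock-in libraries on average, with 1 wild-type library inside their range.

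Cox4i1 is the usual form of subunit IV, and Cox4i2 a low-oxygen form known from lung and from cells of small vessels. Cox4i1 had between 2367 and 3531 TPM (median 2789.5) in the knock-in libraries, against 3629 to 4459 TPM (median 3913) in wild type, with no overlap, and a log2 fold change in CPM of -0.85 ± 0.13 with 13 libraries and -0.68 ± 0.12 with 10. Cox4i2 was scarce, with between 19.98 and 30.4 TPM (median 24.4) in the knock-in libraries, against 18.2 to 32.9 TPM (median 20.3) in wild type, and its groups overlapped widely. Its log2 fold change in CPM was -0.27 ± 0.14 (edgeR adjusted p = 0.135) with 13 libraries and -0.09 ± 0.12 (edgeR adjusted p = 0.580) with 10, and on the TPM scale it was 0.16 and 0.31. Relative to Cox4i1, Cox4i2 was higher in knock-in libraries: the log2 ratio differed by 0.61 with 13 libraries (exact permutation p = 0.00117, adjusted p = 0.00311) and 0.62 with 10 (exact permutation p = 0.00952, adjusted p = 0.0190). Cox4i2 made up 0.711 to 1.02% of the pair in knock-in libraries and 0.476 to 0.732% in wild type. Markers of mural cells, the cells of small vessel walls, summed to 439.5 to 670.5 TPM in knock-in libraries and 399 to 729 TPM in wild type. Rgs5, the largest part of this sum, had 284 to 469 TPM in knock-in libraries and 267 to 502 TPM in wild type. Of the 8 mural markers 2 were lower and 2 higher with 13 libraries, where 21.0% and 23.6% of all tested genes were. With 10 libraries 1 was lower and 1 higher, where 21.3% and 22.3% of all tested genes were. What part mural cells have in the Cox4i2 to Cox4i1 ratio was not tested.

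The last complex IV pair was that of subunit VIb. Cox6b1 had between 2606 and 3528 TPM (median 3397) in the knock-in libraries, against 4062 to 6231 TPM (median 5070.0) in wild type, and a log2 fold change in CPM of -1.11 ± 0.16 with 13 libraries and -0.95 ± 0.17 with 10. Cox6b2, known as the testis form, had only between 3.23 and 5.76 TPM (median 4.01) in the knock-in libraries, against 6.79 to 12.6 TPM (median 8.80) in wild type, without overlap, and its log2 fold change in CPM was -1.52 ± 0.23 (edgeR adjusted p = 0.000201) with 13 libraries and -1.28 ± 0.24 with 10. The log2 ratio of Cox6b2 to Cox6b1 differed by -0.41 with 13 libraries (exact permutation p = 0.0186, adjusted p = 0.0308) and -0.38 with 10 (exact permutation p = 0.0810, adjusted p = 0.130). Leaving out knock-in 2, 5 or 6 or wild type 1, 2, 3 or 5 also ended the 13-library call, with adjusted exact permutation p up to 0.0646.

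RefSeq promoter windows were available for 37 of the 49 members. The 250 bases upstream of the start were searched on both strands for letters known from factors that act on mitochondrial genes. The NRF1 core GCATGCG was found in 7 members (18.9%), against 5.78% of the 11535 tested genes with a window, and the GABP core CCGGAAG in 9 (24.3%), against 14.4%. The ERR half-site AAGGTCA was found in 2 members (5.41%, against 3.42%) and the MEF2 pattern in 1 (2.70%, against 3.50%). Windows of 4 isoforms are shown: Cox7a1 and Cox8b, the muscle forms with a window, and Cox6a1 and Cox8a, which fell less with 13 libraries. Cox6a2, Cox4i1 and Cox4i2 had no window, and the Cox6b2 window, which holds none of the motifs, is not shown. The windows of Cox7a2 and Cox6b1, with log2 fold changes of -1.29 and -1.11 with 13 libraries, are not shown either. The Cox7a2 window holds none of the motifs, and the Cox6b1 window holds the GABP core. Each window shown runs 5′ to 3′ in the direction of transcription in GRCm38.p6, with capitals for NRF1 core and GABP core letters on either strand. They are Cox6a1 at chr5:115348959-115349208 (minus strand), Cox7a1 at chr7:30183921-30184170 (plus strand), Cox8a at chr19:7217617-7217866 (minus strand) and Cox8b at chr7:140900447-140900696 (minus strand).
Cox6a1: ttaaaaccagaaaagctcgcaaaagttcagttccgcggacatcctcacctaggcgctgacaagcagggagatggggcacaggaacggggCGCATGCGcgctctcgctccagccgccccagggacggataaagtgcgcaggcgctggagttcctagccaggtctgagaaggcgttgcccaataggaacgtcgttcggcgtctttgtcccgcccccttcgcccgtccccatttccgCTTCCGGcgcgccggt
Cox7a1: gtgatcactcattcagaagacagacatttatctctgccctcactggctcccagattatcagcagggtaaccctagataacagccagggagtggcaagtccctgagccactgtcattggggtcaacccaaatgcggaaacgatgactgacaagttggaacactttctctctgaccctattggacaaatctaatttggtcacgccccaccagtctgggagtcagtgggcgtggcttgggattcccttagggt
Cox8a: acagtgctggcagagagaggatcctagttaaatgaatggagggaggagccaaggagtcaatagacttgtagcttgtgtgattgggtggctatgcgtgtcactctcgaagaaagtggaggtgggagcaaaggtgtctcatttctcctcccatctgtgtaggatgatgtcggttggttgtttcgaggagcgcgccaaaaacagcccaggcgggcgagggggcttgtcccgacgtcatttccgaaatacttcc
Cox8b: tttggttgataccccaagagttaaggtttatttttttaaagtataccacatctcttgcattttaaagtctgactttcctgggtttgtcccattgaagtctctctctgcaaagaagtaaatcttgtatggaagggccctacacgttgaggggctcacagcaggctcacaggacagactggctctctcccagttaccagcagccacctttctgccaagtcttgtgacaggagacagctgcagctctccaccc
Of these 4, the Cox6a1 window holds the NRF1 core, on both strands at overlapping positions, and the GABP core, and the windows of Cox7a1, Cox8a and Cox8b hold none of the 4 motifs. A match describes letters, and no match says only that these letters are not in this window.

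All 17 subunits of complex V were lower in both sets, with medians of -1.11 and -0.84, and in each the groups did not overlap in CPM. In the catalytic head, the alpha and beta subunits Atp5a1 and Atp5b had log2 fold changes of -0.94 ± 0.12 and -0.96 ± 0.13 with 13 libraries, and -0.80 ± 0.13 and -0.81 ± 0.14 with 10. The rotating stalk subunits gamma, delta and epsilon (Atp5c1, Atp5d and Atp5e) had -1.12 ± 0.16, -0.88 ± 0.14 and -0.87 ± 0.11 with 13 libraries, and -0.97 ± 0.17, -0.67 ± 0.10 and -0.95 ± 0.12 with 10. Atp5e was the only member whose fall was larger with 10 libraries than with 13.

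In the side stalk, which keeps the head from turning, Atp5h (subunit d) and Atp5pb (subunit b) fell most of complex V with 13 libraries, and Atp5h and Atp5o with 10. Atp5h had between 539 and 1094 CPM (median 827) in the knock-in libraries, against 1291 to 2698 CPM (median 2176) in wild type, a log2 fold change of -1.39 ± 0.21 (edgeR adjusted p = 0.000211) with 13 libraries and -1.13 ± 0.20 with 10. Atp5pb had between 707 and 1430.0 CPM (median 995) in the knock-in libraries, against 1813 to 3149 CPM (median 2577) in wild type, a log2 fold change of -1.31 ± 0.19 with 13 libraries and -1.06 ± 0.18 with 10. In both genes wild type 1 and 2 were the lowest wild-type libraries and still lay above all knock-in libraries. Atp5o, the OSCP subunit at the top of the stalk, and Atp5j, its coupling factor F6, had log2 fold changes of -1.29 ± 0.17 and -1.18 ± 0.18 with 13 libraries, and -1.07 ± 0.15 and -0.92 ± 0.14 with 10. The partner of Atp5j on the other strand is Gabpa, and the read numbers of Atp5j were not whole in knock-in 4, 5 and 6 only.

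Atp5j2 (subunit f) was the most abundant complex V member per length, with between 4722 and 9236 TPM (median 7891) in the knock-in libraries, against 9577 to 13865 TPM (median 11636) in wild type. The highest knock-in value came close to the lowest wild-type value, that of wild type 2. Its log2 fold change in CPM was -1.11 ± 0.20 with 13 libraries and -0.84 ± 0.16 with 10. The other membrane subunits, Atp5k (e), Atp5l (g), Atp5md (DAPIT) and Atp5mpl, had log2 fold changes from -1.22 to -1.01 with 13 libraries and from -0.95 to -0.76 with 10. Subunits e and g hold ATP synthase dimers together at the edges of the cristae.

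Subunit c, which forms the proton-driven ring, is made from 3 genes that give the same mature protein. Atp5g1 had between 1439 and 2551 TPM (median 1851) in the knock-in libraries, against 2677 to 3528 TPM (median 3213) in wild type, and a log2 fold change in CPM of -1.13 ± 0.17 with 13 libraries and -0.93 ± 0.17 with 10. Atp5g3 had between 1989.6 and 2639 TPM (median 2226) in the knock-in libraries, against 2583 to 3853 TPM (median 3029) in wild type, and a log2 fold change of -0.92 ± 0.11 with 13 libraries and -0.82 ± 0.12 with 10. Atp5g1 and Atp5g3 were of like abundance, and the groups of Atp5g3 overlapped in TPM. Atp5g2, the scarcest of the 3, fell least in complex V with 13 libraries, and Atp5d with 10. Atp5g2 had between 788 and 1054 TPM (median 884) in the knock-in libraries, against 1062 to 1291 TPM (median 1203) in wild type, without overlap, and a log2 fold change in CPM of -0.81 ± 0.11 (edgeR adjusted p = 0.000126) with 13 libraries and -0.76 ± 0.12 with 10. The Atp5g1 to Atp5g2 log2 ratio differed by -0.33 with 13 libraries (exact permutation p = 0.0192, adjusted p = 0.0308) and -0.17 with 10 (exact permutation p = 0.138, adjusted p = 0.184). Leaving out knock-in 5 or 6 or wild type 2, 3, 5 or 6 also ended that call, with adjusted exact permutation p up to 0.0707. The ratios to Atp5g3 were not called in either set: Atp5g1 to Atp5g3 differed by -0.22 and -0.11, and Atp5g2 to Atp5g3 by 0.11 and 0.06, with adjusted exact permutation p of 0.216, 0.652, 0.367 and 0.652.

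Complex I subunits were lower as well, and lists of other mitochondrial genes were lower in part. Over all tested genes 21.0% were lower with 13 libraries and 21.3% with 10. Of 36 complex I subunits, 36 were lower in both sets, with medians of -1.04 and -0.87, for instance Ndufs1 with 482 ± 92.7 CPM in knock-in libraries and 1146 ± 195 CPM in wild type, a log2 fold change of -1.25 ± 0.15 (edgeR adjusted p = 3.72e-05). Of 47 assembly factors of complexes II to V, 43 were found by name. They were lower in 37 of 43 tested with 13 libraries and 35 of 42 with 10, 0 higher in either set, and their medians were -0.56 and -0.50. With library totals 24 of 43 assembly factors were lower and 1 higher with 13 libraries, and 17 of 42 lower and 0 higher with 10. Fmc1, needed to assemble ATP synthase in yeast, had 50.6 ± 8.80 CPM in knock-in libraries and 122 ± 14.7 CPM in wild type, a log2 fold change of -1.27 ± 0.13 (edgeR adjusted p = 1.14e-05). Lrpprc, which stabilises mitochondrial messenger RNA, changed by -1.13 ± 0.14 (edgeR adjusted p = 5.79e-05).

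Of 19 genes of mitochondrial carriers and of the outer and inner mitochondrial membranes, 13 were lower with 13 libraries and 16 with 10, and 0 were higher. With library totals 13 and 11 of these were lower, and 0 and 1 higher. Slc25a20, the acylcarnitine carrier, changed by -1.09 ± 0.14, and Vdac1, the main pore of the outer membrane, by -0.81 ± 0.11. Regulators of mitochondrial genes were called in both directions, more often lower. Of 19, 11 were lower and 3 higher with 13 libraries, and 11 lower and 1 higher with 10. Over all tested genes 21.0% were lower and 23.6% higher with 13 libraries, and 21.3% and 22.3% with 10. Library totals gave 6 lower and 4 higher with 13 libraries and 5 lower and 4 higher with 10. That scaling called 6110 of 14588 tested genes higher and 1661 lower with 13 libraries, and 6049 of 14518 higher and 1528 lower with 10. The nuclear receptors Esrrg and Esrra, which drive genes of oxidative metabolism in heart, changed by -1.09 ± 0.14 (edgeR adjusted p = 6.87e-05) and -0.58 ± 0.11 (edgeR adjusted p = 0.000845). The coactivator Pprc1 was higher, at 0.64 ± 0.17 (edgeR adjusted p = 0.00948), as were Gabpb1 at 0.37 ± 0.13 and Nrf1 at 0.30 ± 0.11 with 13 libraries only. Ppargc1a, the best known coactivator of mitochondrial biogenesis, varied widely between libraries and was not called: it had 101 ± 106 CPM in knock-in libraries and 151 ± 25.3 CPM in wild type, a log2 fold change of -0.58 ± 0.45 (edgeR adjusted p = 0.307).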

How the data were processed

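Right ventricle RNA of 7 Dsg2 F536C knock-in and 6 wild-type libraries was used. Per the labels' protocols, RNA was extracted with TRIzol and made into poly(A) libraries with a stranded Illumina kit. Per the submitters' processing notes, DRAGEN and the GRCm39 (mm39) build were used. The deposited tables hold per gene the estimated counts and TPM that the authors made, and the effective length. No source used here names the annotation or the strand setting of the counting. Library totals were 14498336 to 29848597 estimated reads.

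Estimated counts were rounded, filtered with edgeR's filterByExpr, scaled by TMM and fitted with edgeR 4.0.16 (robust quasi-likelihood F test, R 4.3.3), with Benjamini-Hochberg adjustment over all tested genes at 0.05. Standard errors were taken from the F statistic, as the size of the log2 fold change over its square root. The fit was tested on simulated data. Isoform ratios needed 10 reads in at least 6 libraries for both genes, so that 8 of 10 planned ratios were computed. They were compared over all 1716 splits of 13 libraries or 210 splits of 10, in Python 3.11.15 with scipy 1.17.1.

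The members, lists, ratios and the set of 10 libraries were chosen with earlier results of these data known. Members given with full values were the complex II subunits, Cyc1, Cycs, isoform pairs and, in complexes III to V, the member with the highest mean TPM and, with 13 libraries, the 2 that fell most and the 1 that fell least. Alternatives were DESeq2 1.42.0, its size factors, library totals, limma 3.58.1 (voom with sample quality weights, and on log2(TPM + 1) and log2(TPM + 0.1)), no low-count filter, a length offset, a replicate block and leaving out each library. No gene coordinates of GRCm39 were used.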

Additional observations from a re-analysis of the deposited data

Results flagged for a closer look

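Of 110 groups of values checked for a single library far from the rest, 4 stood out, and chance alone gives about 1 in 20. Cox6b2 had 4.30 CPM in wild type 5, against 2.13 to 2.90 CPM in the other wild-type libraries. Atp5b, the beta subunit of ATP synthase, had 4253 CPM in wild type 1, against 5306 to 5568 CPM in the other wild-type libraries. Atp5e, the epsilon subunit, had 536.5 CPM in wild type 2, against 706 to 800.5 CPM in the other wild-type libraries. The log2 ratio of Atp5g2 to Atp5g3 was -0.92 in knock-in 5, against -1.41 to -1.26 in the other knock-in libraries.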

How the results depend on the processing

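Every count of members called lower or higher, over all members and by complex, stayed within 1.5 times its main value under all alternatives run, with 13 libraries and with 10. Of 1081 recomputed log2 fold changes of members with 13 libraries 1068 kept their direction and call, and of 893 with 10 libraries 871 did. Direction turned for Cox4i2 with 13 libraries (0.16 and 0.17 with limma on TPM + 1 and TPM + 0.1), and with 10 libraries for Cox4i2 (0.15 with library totals, 0.31 and 0.32 on TPM), Cox6a1 (0.018 with library totals, 0.18 on both TPM scales) and Cox7a2l (0.11 on both). With 10 libraries Cox6a1 was called without knock-in 2 or without wild type 2, and Cox7a2l without wild type 2, and DESeq2 and limma-voom called both.

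Leaving out 1 library moved the log2 ratio differences over -0.50 to -0.34 for Cox6b2 to Cox6b1 and -0.38 to -0.26 for Atp5g1 to Atp5g2 with 13 libraries, and over -0.026 to 0.14 for Atp5g2 to Atp5g3 with 10. A pseudocount of 1 gave -0.27 for Cox6b2 to Cox6b1 (adjusted exact permutation p = 0.0942). Without knock-in 4, 5 and 6 the differences were -0.31 for Cox7a1 to Cox7a2, -0.38 for Cox6b2 to Cox6b1 and -0.17 for Atp5g1 to Atp5g2.

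The labels state no pairing of same-numbered libraries. Their deviations from the group means correlated at -0.11 to 0.08 over 6 pairs, and at -0.04 to 0.24 with 10 libraries. So few pairs, without a test, cannot decide whether the numbers pair libraries. With the number as a replicate block, edgeR called 2270 genes higher and 2541 lower with 13 libraries and 1385 and 1400 with 10, against 3442 and 3060, and 3241 and 3099, without it. Library totals gave 6110 higher and 1661 lower with 13 libraries and 6049 higher and 1528 lower with 10, and limma on log2(TPM + 1) 7665 higher and 1087 lower and 7737 higher and 924 lower. Paired differences with 13 libraries were -1.03 (Cox6a2 to Cox6a1), -0.79 (Cox8b to Cox8a), 0.57 (Cox4i2 to Cox4i1), -0.47 (Cox6b2 to Cox6b1) and -0.35 (Atp5g1 to Atp5g2), and all 5 calls were lost (adjusted exact permutation p = 0.0833 for the first 3 and 0.1 for the others; 6 pairs allow no raw p below 0.0313). With 10 libraries they were -0.91, -0.63 and 0.33 for the first 3 of these, -0.31 for Cox7a1 to Cox7a2 and 0.11 for Atp5g1 to Atp5g3, and the 4 calls of that set (all but Atp5g1 to Atp5g3) were lost (adjusted exact permutation p = 0.4, where 3 pairs allow no raw p below 0.25). The cause of these moves was not tested.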

Other observations

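The ADP/ATP carriers of the inner membrane also come as a heart and muscle form and a widespread form. Slc25a4, the heart and muscle form, had 3638 ± 929.9 CPM in knock-in libraries and 7897 ± 1286 CPM in wild type (mean ± SD, n = 7 and 6), a log2 fold change of -1.12 ± 0.17 with 13 libraries (edgeR adjusted p = 0.000228) and -0.90 ± 0.17 with 10. Slc25a5 had 363 ± 79.5 CPM in knock-in libraries and 382 ± 49.9 CPM in wild type, a log2 fold change of -0.07 ± 0.15 (edgeR adjusted p = 0.698) with 13 libraries and -0.30 ± 0.13 (edgeR adjusted p = 0.0802) with 10, and with library totals its 13-library change was 0.17. Both genes were picked after their values were seen, and the difference between them was not tested.

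Among wild-type libraries, wild type 2 had the lowest CPM in 31 of the 47 tested members and wild type 1 in 11. How often these libraries were lowest over all tested genes was not computed, so the counts may not be particular to the members.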
